A study of Mus musculus with 12 samples.

Results

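*Nmrk2* and 9 other genes of NAD metabolism (*Nmrk1*, *Nampt*, *Nmnat1*, *Nmnat3*, *Nadk*, *Nnt*, *Cd38*, *Sirt1* and *Sirt3*) were followed in the hearts of diabetic and non-diabetic mice that did or did not receive an inhibitor of monoamine oxidase (MAO). Every non-control probe that the scanner files name for one of these 10 genes was taken, which gave 21 of the 56605 probes of the array, and 18 of the 21 had enough signal to be tested, among 30859 probes tested in all. *Nmrk2* has 1 probe, on chromosome 10, 80662033 to 80662092 in mm9, minus strand, and was well above background on all 12 arrays. It was chosen by its own values on these arrays, where it had been higher in diabetic than in control hearts and in pargyline-treated than in vehicle-treated control hearts. Its levels are therefore given as a description, without a test, in every comparison below. The other 9 genes were tested.

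The 12 hearts came from male C57BL6/J mice aged 5 months, 1 array per mouse, and no RNA was pooled. Control mice (C, n = 3) received vehicle and no streptozotocin. Diabetic mice (D, n = 3) received streptozotocin, a toxin of the insulin-producing β-cells, on 5 days at 50 mg/kg per day, then vehicle, and counted as diabetic from a blood glucose of 17 mM. Pargyline, the MAO inhibitor, was given over 12 weeks (50 mg/kg daily) to mice without diabetes (C + P, n = 3) and to mice with it (D + P, n = 3). All mice were 6 to 7 weeks old and weighed 20 g or more at the start. Streptozotocin diabetes is a model of insulin deficiency, and pargyline acts in the whole animal, so neither treatment is restricted to the heart. The RNA was of whole heart muscle, in which fewer cells of a type and less RNA per cell cannot be told apart.

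NAD carries electrons from fuel oxidation to the respiratory chain, and it is also consumed as a substrate by sirtuins, ADP-ribosyltransferases and NAD glycohydrolases. The heart rebuilds most of its NAD by salvage: NAMPT turns nicotinamide into nicotinamide mononucleotide, the nicotinamide riboside kinases NMRK1 and NMRK2 make the same mononucleotide from nicotinamide riboside, and the NMNAT enzymes join it to ATP to give NAD. *Nmrk1* is expressed broadly, whereas *Nmrk2* is largely a gene of skeletal and cardiac muscle, known for its induction in stressed muscle.

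The first 30 bases of 5 of the probes are given to show which sequences were read. All probes hold 60 bases, with coordinates in mm9 as deposited.
Nmrk2, chr10:80662033-80662092, minus strand: ctggacagcagggcctgagatgttctgact
Nmrk1 probe 2, chr19:18711730-18711789, plus strand: agtgtaacattggttttagctttcacctgg
Nmrk1 probe 3, chr19:18725771-18725830, plus strand: tggattcagatacttgaagggctattctga
Nnt probe 3, chr13:120193406-120193465, minus strand: tttccttagcaacttggggtcctctaaggt
Nnt probe 1, chr13:120124335-120124394, minus strand: gtattaagtgcgcttgaatggaatgcaacc

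The 250 bases before the start of *Nmrk2* are shown because *Nmrk2* moved with other genes of the heart across the arrays, as described below. They were read from RefSeq promoters of GRCm38.p6, where they lie on the minus strand of chromosome 10, and their GC content was 58.8%.
Nmrk2 promoter, chr10:81202038-81202287: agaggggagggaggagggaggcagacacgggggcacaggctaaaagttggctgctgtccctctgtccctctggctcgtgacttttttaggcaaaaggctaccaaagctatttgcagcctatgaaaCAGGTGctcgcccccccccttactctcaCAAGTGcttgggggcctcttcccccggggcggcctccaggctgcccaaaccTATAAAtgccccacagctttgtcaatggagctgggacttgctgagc
Capitals mark the matches to 2 motifs searched on both strands, which did not overlap. The E-box CANNTG, the general site of basic helix-loop-helix factors, matched as CAGGTG 125 bases and as CAAGTG 97 bases before the start. The TATA box TATAAA matched 46 bases before the start. An E-box was present in 66.2% and a TATAAA in 12.4% of the 32851 promoter windows of this length. Among the 9 of 10 genes of this set that had a promoter in the table, 8 held an E-box and 1, *Nmrk2*, a TATAAA. The CArG box of serum response factor and the MEF2 site, both known from muscle genes, matched in 0 of these 9 promoters, and in 1.47% and 2.92% of all windows. A match of letters is a description and not a binding site. *Nnt* was the gene without an entry.

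All values below are log2 intensities after quantile normalisation between the 12 arrays, and a difference of 1 is a 2-fold difference in intensity. The brightness of a probe also depends on its sequence, so no level was compared between probes. With 3 arrays per group their number limits the precision, and the smallest two-sided p open to an exact permutation test of such groups is 0.1. The tests were therefore those of limma, with the spread pooled over groups and probes and p-values adjusted over all tested probes. A gene counted as called at an adjusted p under 0.05.

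C and D lay on 1 slide and scan, and C + P and D + P on another, so slide and pargyline cannot be told apart in C + P versus C or in D + P versus D. Non-diabetic mice lay in row 1 and diabetic mice in row 2 of each slide, and diabetes cannot be told apart from the row. The spots well above background numbered 23556 (D replicate 1) to 29231 (C replicate 2) of 59305, and 0 were saturated. The variation between repeat spots ranged from 3.89% to 23.2% and was out of the accepted range of the scanner software on 5 arrays (D + P replicates 1 and 3, and replicate 1 of each other group). Of 10 markers of ventricular and general cardiomyocytes, 10 were well above background on all arrays, which goes with the labelled tissue.

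*Nmrk2* was low in the C hearts, at 7.14, 7.28 and 7.17. In the D hearts it reached 9.37, 8.86 and 8.90. In the C + P hearts it was 8.85, 8.38 and 8.54, and in the D + P hearts 8.76, 8.76 and 8.60. The 3 control hearts therefore lay apart, below all 9 hearts of diabetic or pargyline-treated mice, and the gap between the highest C heart and the lowest C + P heart was 1.09. On the linear scale the geometric mean intensity was 147 for the C hearts, 385 for C + P, 527 for D and 418 for D + P.

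**Figure D1:**
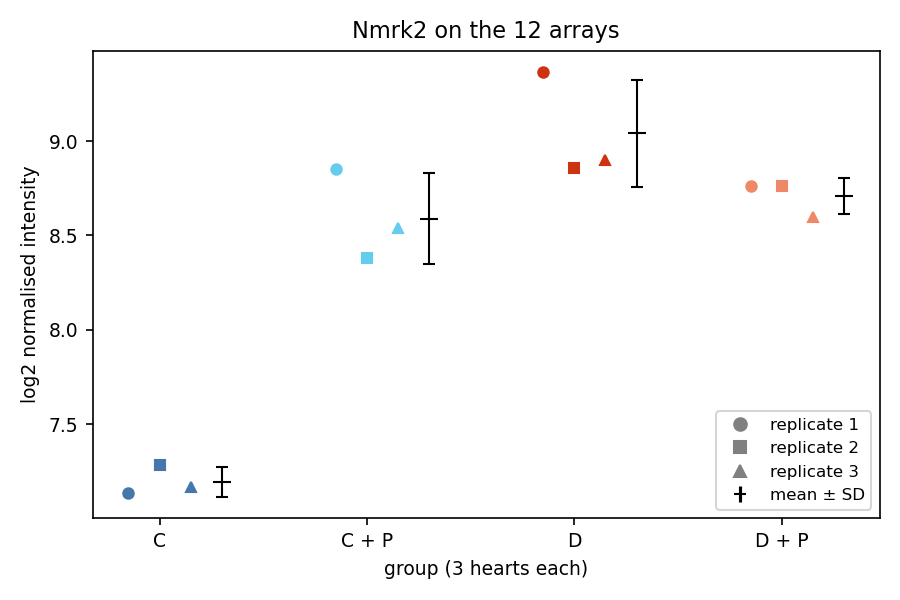
Log2 normalised intensity of the *Nmrk2* probe on each of the 12 arrays, by group on the horizontal axis, with one symbol per replicate and the mean ± SD (n = 3) in black. The 3 C arrays lie between 7.14 and 7.28, and the other 9 between 8.38 and 9.37.

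The group means of *Nmrk2*, with their SD over 3 hearts, were 9.04 ± 0.28 in D, 8.71 ± 0.09 in D + P, 8.59 ± 0.24 in C + P and 7.20 ± 0.08 in C. Between D and D + P, neighbours in this order, the means differed by 0.33 and the arrays were parted by only 0.093, less than the pooled within-group SD of 0.195. D + P and C + P overlapped and their means differed by 0.12, again less than that SD. The step from C + P down to C was 1.39, without overlap.

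Without pargyline, *Nmrk2* was 1.85 log2 units higher in D than in C, which is 3.60-fold. With pargyline in both groups, D + P exceeded C + P by 0.12, which is 1.09-fold, with overlapping arrays. Averaged over both pargyline states the difference by diabetes was 0.98. Pargyline in non-diabetic mice went with a level 1.39 higher, which is 2.63-fold, whereas in diabetic mice it went with a level 0.33 lower. The interaction, which is D + P minus C + P less D minus C, was -1.73. An additive shift of a slide cancels in the differences by diabetes and in the interaction, but not in those by pargyline. With normexp background correction the C + P versus C difference was 0.87 in place of 1.39. Without D replicate 1, the array with the highest *Nmrk2* value and the largest variation between repeat spots, D + P versus D was -0.17, and without all 5 arrays of doubtful repeat spots, which leaves 1 D + P heart, it was -0.12. Leaving out C + P replicate 1 and C + P replicate 2 in turn took D + P versus C + P to 0.25 and 0.01, and without the 5 arrays it was 0.30.

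The measured quality of the arrays moved with *Nmrk2* to some degree. Over 12 arrays its level had a Pearson r of -0.69 with the number of spots well above background and of 0.45 with the variation between repeat spots, where arrays share group and slide. The 3 C arrays held 28472 to 29231 spots well above background. D replicate 2 lay in that range, with 28774 such spots and *Nmrk2* at 8.86, and C + P replicate 3 close to it, with 28272 and *Nmrk2* at 8.54. The remaining D, C + P and D + P arrays held fewer, 23556 to 27930, with *Nmrk2* between 8.38 and 9.37. The part of array quality in the result was not tested.

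*Nmrk1* is the other nicotinamide riboside kinase. Its brightest probe, probe 2, which the files assign to an Ensembl transcript, was well above background on 12 of 12 arrays. It read 8.11, 7.97 and 7.66 in C, 7.71, 7.40 and 6.33 in D, 7.23, 7.81 and 7.93 in C + P, and 8.11, 7.77 and 8.004 in D + P. D replicate 3 was the lowest of the 12, and the D and C arrays overlapped. The mean was 0.76 lower in D than in C (SE 0.33, unadjusted p = 0.0408, adjusted p = 0.449), a direction opposite to that of *Nmrk2*, and the D + P mean exceeded that of C + P by 0.30 (SE 0.33, adjusted p = 0.853). The D + P arrays all lay above the D arrays (difference 0.81, SE 0.33, unadjusted p = 0.0319, adjusted p = 0.327). The interaction was 1.07 (SE 0.46, unadjusted p = 0.0430, adjusted p = 0.709). Without D replicate 3 the differences were -0.36 for D versus C and 0.40 for D + P versus D, with adjusted p of 0.630 and 0.577. Probe 3 of *Nmrk1*, on the RefSeq transcript, was well above background on 0 of 12 arrays, so that no fold is given for it, though it is counted among the tested probes. Probe 1 was too dim to be tested.

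*Nampt*, the rate-limiting enzyme of nicotinamide salvage, has 1 probe (chr12:33535475-33535534). It read 10.75, 10.47 and 10.30 in C, 10.05, 10.67 and 10.32 in D, 10.63, 10.16 and 10.01 in C + P, and 10.59, 10.43 and 10.90 in D + P. All groups overlapped. D differed from C by -0.16 (95% interval -0.66 to 0.35) and D + P from C + P by 0.37 (95% interval -0.13 to 0.88, adjusted p = 0.75, the smallest of that comparison among these genes).

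The NMNAT enzymes complete NAD. *Nmnat1*, the nuclear form, has a pair of probes, both well above background on 12 of 12 arrays. Probe 2 (chr4:148842959-148843018) read 9.54, 9.63 and 9.55 in C, but 8.40, 9.39 and 9.55 in D. Only D replicate 1 stood apart, and it was also low for probe 1, at 7.57 against 9.04 and 9.12 in the other D hearts. The D versus C differences were -0.46 (SE 0.27, adjusted p = 0.540) for probe 2 and -0.62 (SE 0.36, adjusted p = 0.537) for probe 1, and without D replicate 1 they were -0.10 and -0.12. With pargyline probe 2 read 9.97, 9.52 and 9.85 in non-diabetic and 9.60, 9.57 and 9.38 in diabetic mice, which overlapped. *Nmnat3*, the mitochondrial form, read 10.17, 10.22 and 10.33 in C and 10.17, 10.45 and 10.50 in D with its brightest probe. That difference of 0.14 (95% interval -0.30 to 0.57) lay within the spread between arrays. The C + P hearts (10.57, 10.18 and 9.82) and the D + P hearts (10.32, 10.05 and 10.29) overlapped with them, and C + P spread most. Of the other *Nmnat3* probes, probe 1 was well above background on 3 and probe 4 on 6 of 12 arrays, and probe 2 was too dim to be tested.

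*Nadk*, the cytosolic kinase that makes NADP from NAD, read 10.37, 9.996 and 9.96 in C, 9.93, 10.07 and 10.04 in D, 9.57, 10.15 and 10.24 in C + P, and 9.92, 10.11 and 10.49 in D + P with its brightest probe. The groups overlapped throughout. It differed between D and C by -0.10 (95% interval -0.58 to 0.38) with that probe and by 0.11 (95% interval -0.31 to 0.53) with the other. *Nnt* encodes the transhydrogenase of the inner mitochondrial membrane that makes NADPH at the expense of the proton gradient. C57BL/6J mice are known to carry a deletion within *Nnt*, and the strain given as C57BL6/J was read as this one. The brightest *Nnt* probe, probe 1, read between 13.05 and 13.71 on the 12 arrays, and probe 3, elsewhere in the gene, between 8.85 and 9.64. Whether either of them lies in the deleted stretch was not determined. Probe 1 was lower on every C + P array (13.33, 13.27 and 13.08) than on any C array (13.33, 13.51 and 13.56), by 0.24 on average (SE 0.19, adjusted p = 1.00), and the nearest arrays, C + P replicate 1 at 13.331 and C replicate 1 at 13.334, were almost equal. In the diabetic hearts probe 1 read 13.05, 13.71 and 13.53 without and 13.32, 13.60 and 13.66 with pargyline. On 8 of 12 arrays probe 2 was well above background. Probe 3 differed between D and C by 0.24 and between D + P and C + P by 0.27 (SE 0.19 for both, adjusted p = 0.658 and 0.785), and averaged over pargyline by 0.25 (95% interval -0.05 to 0.55, adjusted p = 0.525).

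Among the enzymes that consume NAD, *Cd38*, the main NAD glycohydrolase of tissues, read 7.46, 7.25 and 7.21 in C, 7.69, 7.53 and 7.18 in D, 7.76, 7.50 and 7.30 in C + P, and 7.58, 7.57 and 7.87 in D + P. D exceeded C by 0.16 (95% interval -0.25 to 0.57) and C + P exceeded C by 0.21 (95% interval -0.20 to 0.62), with overlapping arrays. Of these 9 genes its r with *Nmrk2* over the 12 arrays was the highest, at 0.51. *Sirt1*, a nuclear deacetylase, read 8.53, 8.55 and 8.45 in C and 7.93, 8.97 and 8.51 in D with its tested probe, so that the D arrays lay on both sides of the C arrays. The C + P hearts read 8.66, 8.39 and 8.12 and the D + P hearts 8.60, 8.60 and 8.63. Its other probe was too dim to be tested. *Sirt3*, the main deacetylase of mitochondria, had the smallest pooled within-group SD of the 21 probes, at 0.0847. Its brightest probe read 11.62, 11.68 and 11.58 in C and 11.51, 11.59 and 11.65 in D, and the difference of -0.04 had a 95% interval of -0.33 to 0.25. With pargyline it read 11.81, 11.77 and 11.60 in non-diabetic and 11.59, 11.59 and 11.75 in diabetic mice. Probe 2 of *Sirt3* was higher on each D + P array than on any D array (8.56, 8.29 and 8.60 against 8.26, 8.19 and 7.20, difference 0.60, SE 0.28, adjusted p = 0.390), and without D replicate 3 the difference was 0.26.

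**Figure D2:**
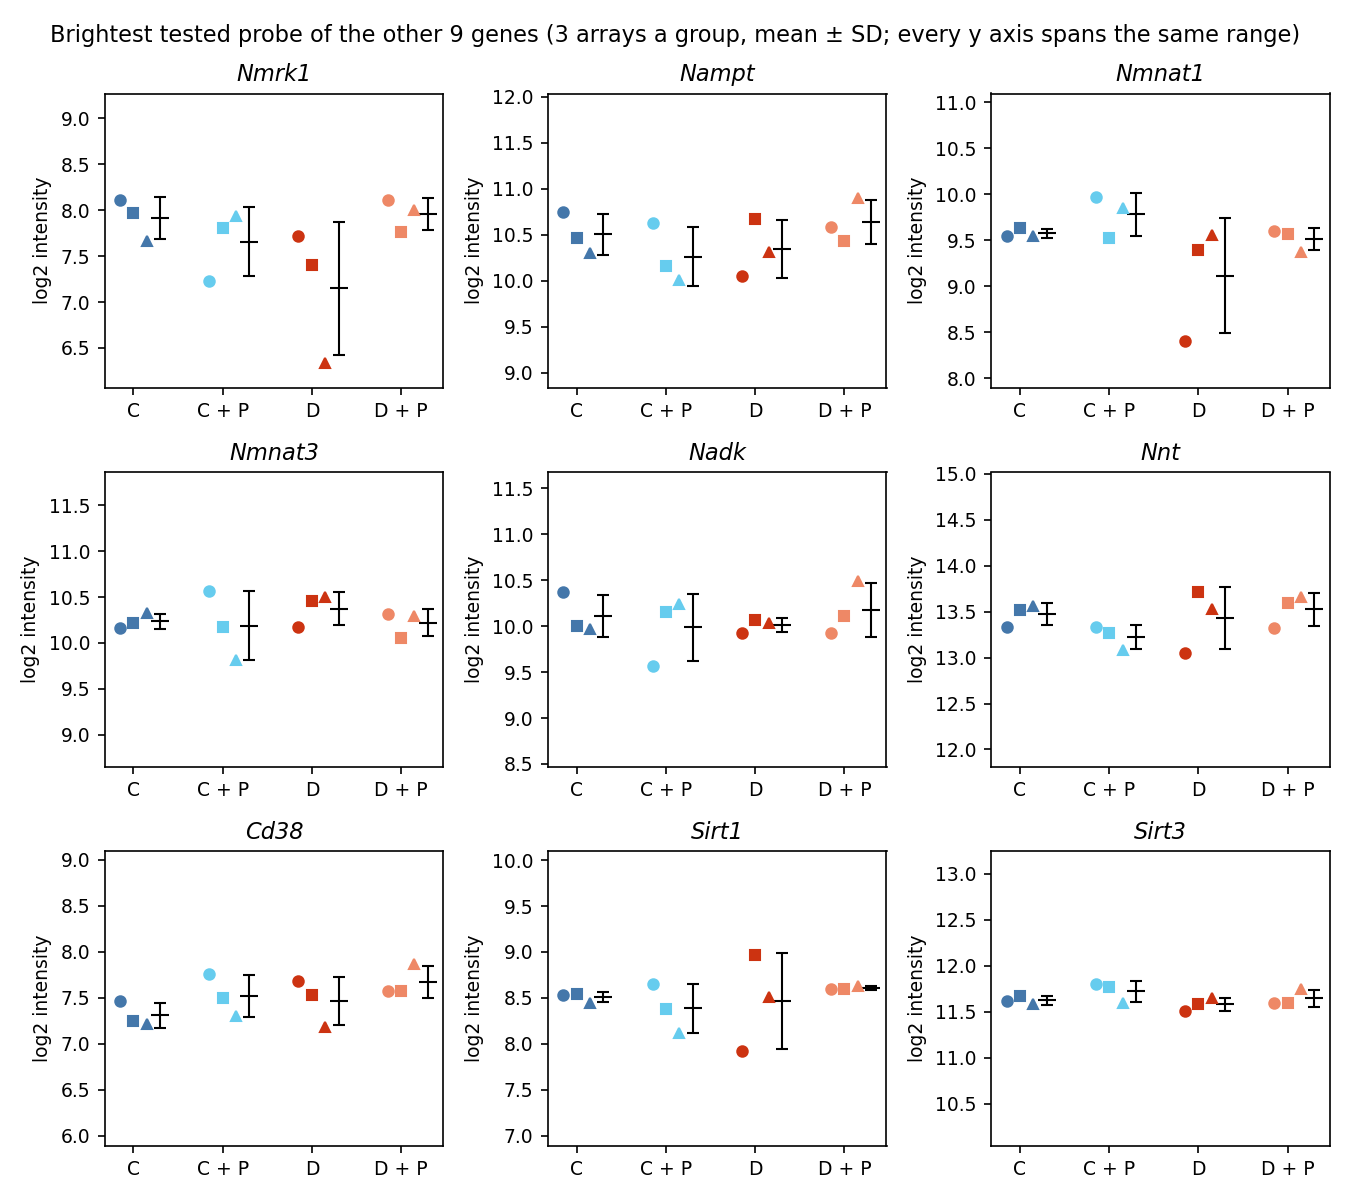
Log2 normalised intensity of the brightest tested probe of each of the other 9 genes on the 12 arrays, by group, one symbol per replicate, with the mean ± SD (n = 3) in black; each vertical axis spans the same range. The arrays of the 4 groups overlap for most genes, and single D arrays lie low for *Nmrk1* (6.33) and *Nmnat1* (8.40).

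Counted together, the 17 tested probes of the 9 genes gave 0 calls by limma in each of the 6 comparisons. In D versus C, where 0.00648% of all tested probes were called, 1 of 17 had an unadjusted p under 0.05 (*Nmrk1* probe 2, lower) against 10.8% of all probes, and 1 had arrays that did not overlap (*Nmnat1* probe 1, lower) against 22.3% of all. In D + P versus C + P the background was 0.0454% called, 7.46% at the unadjusted p and 13.9% without overlap, and the 17 probes gave 0 in each of the 3 counts. For diabetes averaged over pargyline 0.107% of all probes were called and 11.4% had an unadjusted p under 0.05, against 0 and 0 of the 17. In C + P versus C, with a background of 0.0324%, 4.43% and 15.4%, the counts were 0, 0 and 1 (*Nnt* probe 1, lower). In D + P versus D, with 0%, 13.3% and 17%, they were 0, 1 (*Nmrk1* probe 2, higher) and 2 (*Nmrk1* probe 2 and *Sirt3* probe 2, both higher). For the interaction, with 0.00648% and 7.03%, they were 0 and 1 (*Nmrk1* probe 2). These shares lay near or below the background. The median difference of the brightest probes of the 9 genes was -0.04 by diabetes without pargyline and 0.19 with it, and -0.12 by pargyline without diabetes and 0.17 with it, beside medians of all tested probes between -0.01 and 0.01. The count of 0 calls was also given by the methods' t-test with Benjamini-Hochberg or Bonferroni adjustment and by every other alternative, with 0.141 as the smallest adjusted p.

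**Figure D3:**
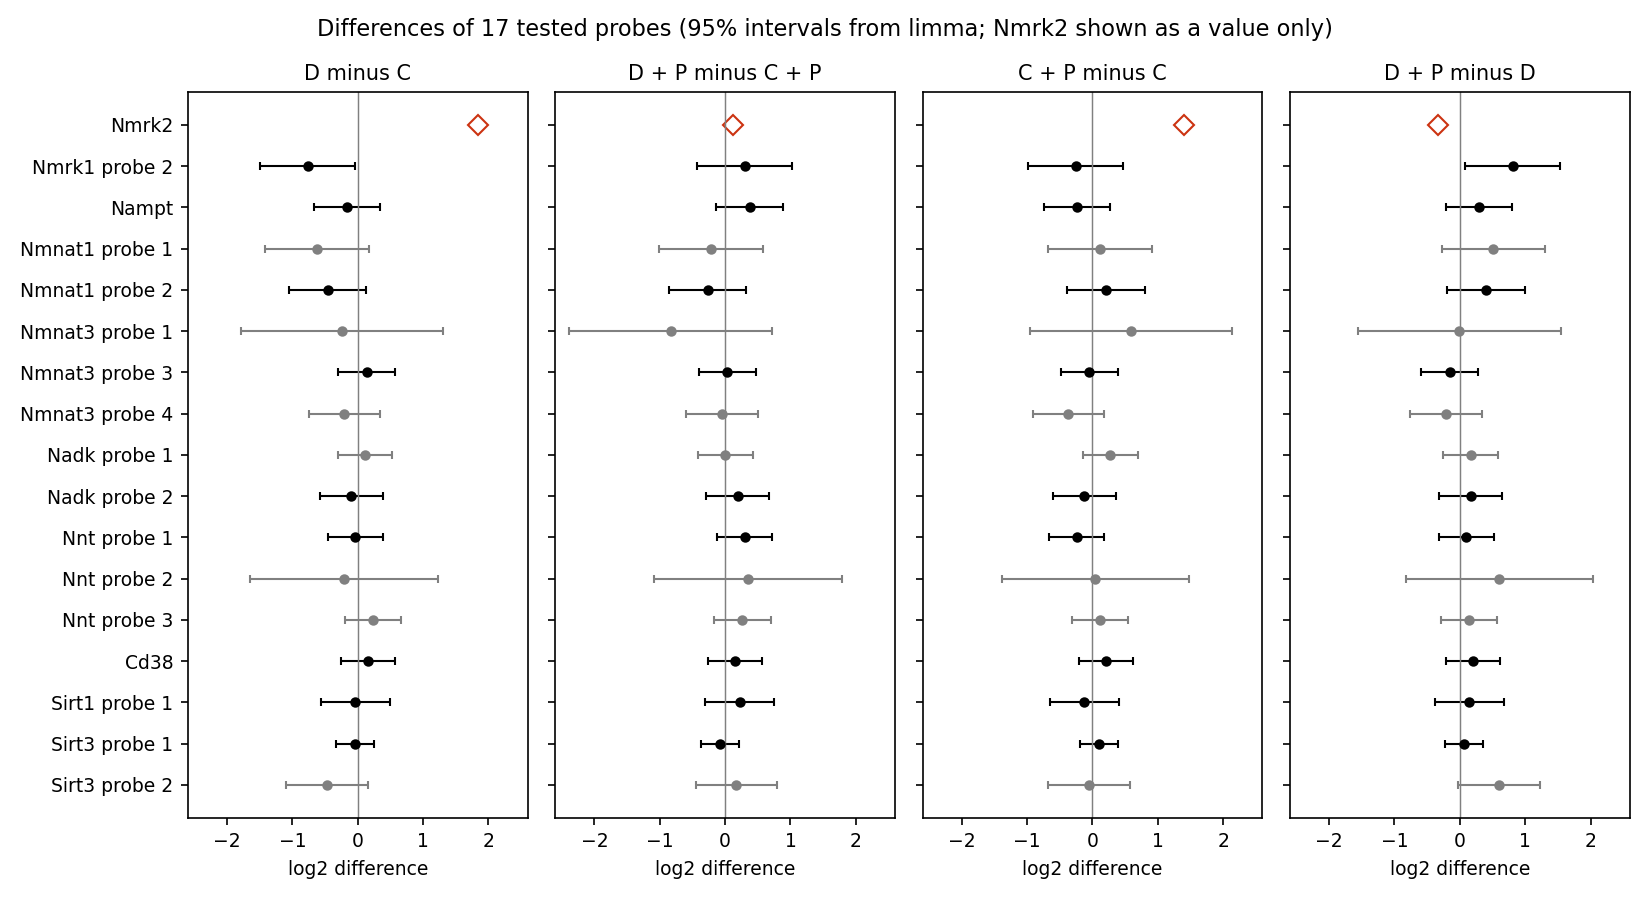
Log2 differences of the tested probes in 4 comparisons, without the 1 that was well above background on no array, with 95% intervals from limma; black points are the brightest tested probe of a gene, grey points its other probes, and the open diamond is *Nmrk2*, shown without an interval because it was chosen on these values. *Nmrk2* lies at 1.85, 0.12, 1.39 and -0.33, while the intervals of the other probes cross 0 except those of *Nmrk1* probe 2 in D minus C and in D + P minus D.

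The genes whose log2 values followed *Nmrk2* most closely over the 12 arrays were listed by Pearson r, as a description, since arrays share group, slide and noise. The 10 highest were *Pfkp* (r = 0.94), *Kifc3* (0.93), *Grpr* (0.92), *Nppa* (0.91), *Mfsd14b* (0.91), *Eif5a2* (0.90), *Tmed3* (0.90), *Mical3* (0.89), *Carmil3* (0.89) and *Gnai3* (0.88). Among the 26384 probes with a gene name, 95% had an r under 0.55 and 99% under 0.72. *Pfkp*, the platelet isoform of phosphofructokinase in glycolysis, read 8.11, 8.29 and 8.20 in C, 9.06, 8.77 and 8.75 in D, 8.98, 8.61 and 8.46 in C + P, and 8.82, 8.82 and 8.81 in D + P. Its C hearts lay below all others, as those of *Nmrk2* did, which follows in part from its choice by r with *Nmrk2*. This probe of *Nppa*, which encodes atrial natriuretic peptide and is known for its induction in the stressed ventricle, read 12.25, 12.32 and 12.00 in C, 14.11, 13.58 and 14.09 in D, 12.97, 12.89 and 13.19 in C + P, and 13.74, 13.89 and 13.61 in D + P. On this probe the C + P hearts thus lay between C and the diabetic hearts. On the *Nppa* probe read below as an atrial marker, C + P (14.26, 14.29 and 14.74) overlapped with D + P (15.47, 15.57 and 14.56). In *Nmrk2* all 3 C + P hearts lay above C, and they overlapped with D + P through C + P replicate 1. They also lay below D, but C + P replicate 1 at 8.85 and D replicate 2 at 8.856 were almost equal. *Carmil3* was well above background on 0 and *Mical3* on 10 of 12 arrays. The lists of alternatives shared between 2 (normexp) and 10 (no filter) of these 10 genes, between 5 and 9 when 1 array was left out, and 1 when the 5 arrays of doubtful repeat spots were left out.

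**Figure D4:**
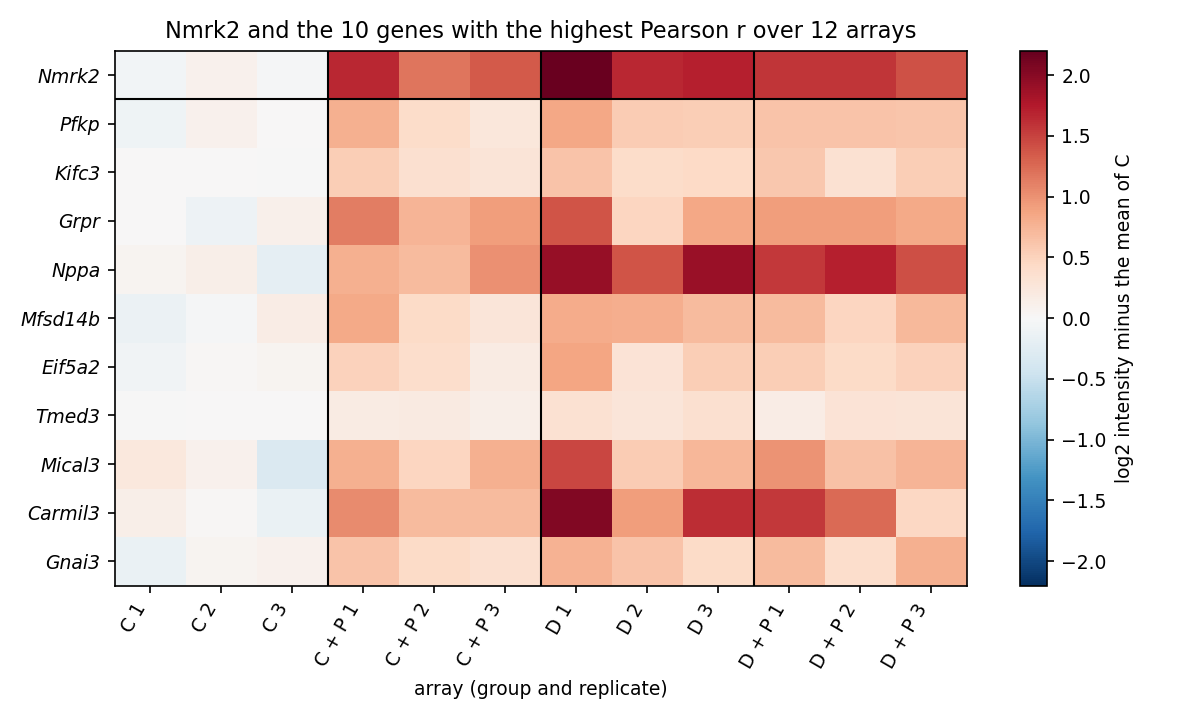
Log2 intensity of *Nmrk2* and of the 10 genes with the highest Pearson r with it, each minus its own mean in C, on the 12 arrays (columns, ordered by group) with colour from -2.2 to 2.2. The C arrays are near 0 in each gene, and D replicate 1 holds the highest value of *Nmrk2*, 2.17 above the C mean.

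The lowest r with *Nmrk2* were those of *Slc44a2* (-0.89), *Ccnf* (-0.87), *Rab3a* (-0.86), *Itga7* (-0.86) and *4931407E12Rik* (-0.85). *Itga7*, the laminin-binding integrin chain of muscle, had a mean of 13.36 in the C hearts, against 13.16 for C + P, 13.07 for D and 13.14 for D + P. When the group means were removed, the highest r of the remaining deviations were those of *Rpl36a* (0.96), *Samd1* (0.96), *Tnik* (0.95), *Kdm2a* (0.95) and *Zmym2* (0.95, well above background on 0 arrays), none of which was among the 10 above. Of the promoters of the 10 genes most like *Nmrk2*, 9 were in the table, 6 held an E-box and 1, that of *Nppa*, a TATAAA.

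Markers of other cells were read beside *Nmrk2*, since skeletal muscle and atrium can be taken with a heart. Of 10 fast skeletal muscle markers, 8 were tested and 2 of these were well above background on all arrays, while *Myh1* and *Actn3* were well above background on 0. Their mean level lay between 5.98 and 6.02 in C, 6.15 and 6.23 in C + P, 5.91 and 6.28 in D, and 5.91 and 6.12 in D + P. Its r with *Nmrk2* was 0.13. Of the 2 well above background on all arrays, *Tnni2* differed by -0.845 in D versus C and by -1.171 in D + P versus C + P. Neither had overlap of arrays, and the adjusted p were 0.413 and 0.398. The other, *Atp2a1*, differed by 0.049 and -0.053. The mean of the 3 tested atrial markers (*Myl7*, *Myl4* and another probe of *Nppa*) lay between 8.55 and 9.05 in C, 9.13 and 9.66 in C + P, 9.57 and 9.69 in D, and 8.56 and 9.50 in D + P. Here r was 0.70, but this mean includes *Nppa*, a gene listed above for its r with *Nmrk2*. Of these 3 markers, *Nppa* read 13.41, 13.93 and 13.76 in C and 15.52, 15.14 and 15.45 in D (difference 1.67, adjusted p = 0.215), with no overlap. *Myl7* read 4.46, 4.76 and 5.21 in C and 5.60, 6.09 and 5.55 in D (difference 0.94, adjusted p = 0.452), also with no overlap, but exceeded background well on only 4 of 12 arrays. *Myl4* read 7.77, 8.30 and 8.18 in C and 7.95, 7.48 and 8.07 in D (difference -0.25, adjusted p = 0.674), and these overlapped. *Sln* exceeded background well on 0 arrays. The 6 markers of macrophages and other leukocytes averaged 11.37 to 11.69 in C, 11.34 to 11.59 in C + P, 11.03 to 11.24 in D and 10.89 to 11.15 in D + P (r = -0.59). No marker of the 10 lists was called in D versus C, and the part of these cells in the level of *Nmrk2* was not tested.

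The other enzymes of NAD metabolism were taken as 10 lists with 65 genes beside the 10 above. A tested probe was found for 61 of them, and *Kynu*, *Acmsd*, *Qprt* and *Sarm1* were too dim. Limma called 0 of the 61 in each of the 6 comparisons, and 0 were called in all alternatives, with 0.0887 as the smallest adjusted p. At an unadjusted p under 0.05 there were 6 in D versus C (2 higher, 4 lower), 2 in D + P versus C + P (0 higher, 2 lower), 5 for diabetes averaged over pargyline (0 higher, 5 lower), 3 in C + P versus C, 4 in D + P versus D and 5 for the interaction, shares near or below those of all tested probes given above. Over the 54 of them with a probe well above background on at least 1 array of every group, the median difference was between -0.08 and 0.02.

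Among the salvage genes beside the set, *Nmnat2*, the Golgi and cytosolic adenylyltransferase, read 5.45, 5.06 and 7.41 in C and 6.28, 6.98 and 5.96 in D, and C replicate 3 stood apart. It differed by 0.44 in D versus C (SE 0.52), by 1.16 without C replicate 3 and -0.02 without C replicate 2, and by -0.97 in D + P versus C + P (SE 0.52, adjusted p = 0.703). *Nt5e*, the ectonucleotidase CD73, and *Pnp*, purine nucleoside phosphorylase, were higher on each D array than on any C array, by 0.48 (SE 0.26, adjusted p = 0.517) and 0.34 (SE 0.18, adjusted p = 0.501). The genes of the route from nicotinic acid, *Naprt* and *Nadsyn1*, named after their values were seen, differed in D versus C by -0.16 (SE 0.18, adjusted p = 0.749) and -0.25 (SE 0.19, adjusted p = 0.630), and neither was called. In the route from tryptophan, 6 of 9 genes were tested, and *Afmid*, well above background on 7 of 12 arrays, differed by -0.72 in D + P versus D (SE 0.50, adjusted p = 0.541), by -0.12 without D + P replicate 3 and by -0.29 without D replicate 1. *Ido2*, outside the naming rule and singled out after its values were seen, had the smallest adjusted p of the 61 in D + P versus D, with 4.49, 4.41 and 4.43 in the D hearts, 5.25, 5.78 and 5.25 in the D + P hearts (adjusted p = 0.157), but it was well above background on only 5 of 12 arrays.

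Of the 15 ADP-ribosyltransferases, which use NAD to modify proteins, 0 were called, and their median difference by diabetes was -0.27 without and -0.12 with pargyline, and by pargyline 0.04 without and 0.14 with diabetes. *Parp8* read 8.17, 8.33 and 8.35 in C and 7.28, 7.95 and 7.33 in D (difference -0.76, SE 0.24, adjusted p = 0.342). *Parp3*, which acts in the repair of DNA breaks, was lower in both diabetic groups than in their controls with no overlap, at 8.80, 8.48 and 8.59 in C against 7.84, 8.35 and 8.37 in D, and at 8.68, 8.71 and 8.72 in C + P against 8.49, 8.19 and 8.29 in D + P. Averaged over pargyline it differed by -0.41 (SE 0.13, unadjusted p = 0.00796, adjusted p = 0.272). Its D versus C difference was -0.44, and -0.26 without D replicate 1. *Parp9* differed by -0.57 in D versus C (SE 0.23, adjusted p = 0.427), and by -0.32 without D replicate 1. *Tnks*, tankyrase, differed by 0.53 in D + P versus D (SE 0.20, adjusted p = 0.289), and *Tiparp* by -0.51 in D + P versus C + P (SE 0.35, adjusted p = 0.776), but by -0.22 without C + P replicate 1 and -0.23 without D + P replicate 1. *Parp6* differed by 0.33 in C + P versus C (SE 0.15, adjusted p = 1.00). Of the 5 sirtuins beside *Sirt1* and *Sirt3*, *Sirt4*, also singled out after its values were seen, was lower in D (7.87, 7.91 and 7.99) than in C (8.14, 8.25 and 8.13), and averaged over pargyline it differed by -0.26 (SE 0.10, adjusted p = 0.357). *Bst1*, the one tested NAD glycohydrolase beside *Cd38*, was well above background on 0 of 12 arrays, so that no fold is given, though it is in the counts of tested genes and of unadjusted p.

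In the clearance of nicotinamide and the repair of damaged NADH, *Nnmt*, which methylates nicotinamide, differed by 0.31 in D + P versus C + P (SE 0.24), which was 0.08 without C + P replicate 1, 0.12 without D + P replicate 1 and 0.49 without D + P replicate 2. *Aox1*, aldehyde oxidase, was lower on each D array (10.01, 9.79 and 9.24) than on any C array (10.40, 10.45 and 10.29), with a difference of -0.70 (SE 0.45, adjusted p = 0.562). *Nudt12*, an NADH diphosphatase, differed by -0.57 in D + P versus C + P (SE 0.23, adjusted p = 0.633). Among the genes of NADPH supply, *Idh2*, the mitochondrial NADP-dependent isocitrate dehydrogenase, differed by 0.53 in D + P versus C + P (SE 0.27, adjusted p = 0.685) and by -0.49 in C + P versus C (SE 0.27, adjusted p = 1.00), where C + P replicate 1 was the lowest of the 12 arrays at 15.34 and without it the differences were 0.20 and -0.16. *G6pdx*, the first enzyme of the pentose phosphate pathway, differed by 0.47 in D + P versus D (SE 0.27, adjusted p = 0.456), and by 0.16 without D replicate 1.

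The shuttles carry the electrons of cytosolic NADH into mitochondria. Of their 11 genes, 0 were called in any comparison. *Gpd2*, the mitochondrial glycerol-3-phosphate dehydrogenase, had the largest difference of the shuttle genes, at 6.18, 6.53 and 6.45 in C and 7.55, 7.10 and 6.92 in D (difference 0.80, SE 0.32, adjusted p = 0.428). With pargyline it read 7.21, 6.44 and 6.15 in C + P and 6.04, 6.80 and 5.79 in D + P, and D + P versus D was -0.98 (SE 0.32, adjusted p = 0.254). *Mdh1*, the cytosolic malate dehydrogenase, was lower on the pargyline slide in both states, by 0.43 in C + P versus C (SE 0.17, adjusted p = 1.00) and by 0.49 in D + P versus D (SE 0.17, adjusted p = 0.269), with no overlap of arrays in either. Among the list genes beside the 10 with a probe well above background on at least 1 array of every group, the largest differences for the interaction were those of *Nmnat2* (-1.40), *Gpd2* (-1.19) and *Afmid* (-0.80) on the negative side and of *Aox1* (0.87), *Parp9* (0.74) and *Tnks* (0.66) on the positive side, with adjusted p between 0.685 and 0.812. Single arrays decided several of these: *Aox1* was 0.22 without C + P replicate 1, *Parp9* 0.49 without D replicate 1, *Afmid* -0.20 without D + P replicate 3 and -0.37 without D replicate 1, and *Nmnat2* -2.12 without C replicate 3.

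**Figure D5:**
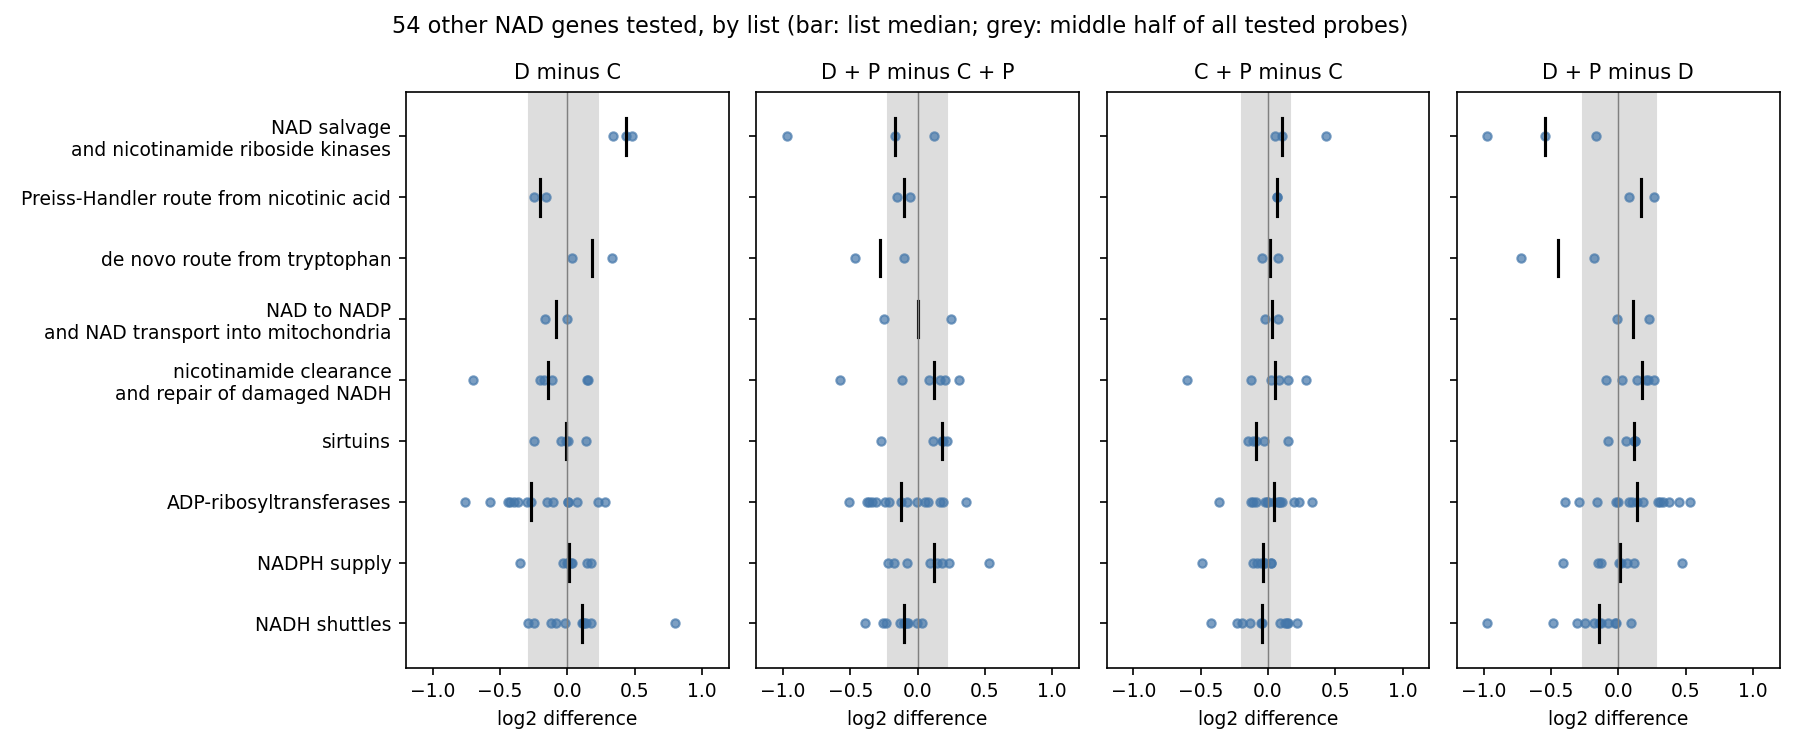
Log2 differences of 54 of the 61 other tested genes of NAD metabolism (points), those with a probe well above background on at least 1 array of every group, by list, in 4 comparisons; black bars are the list medians and the grey band is the interquartile range of all 30859 tested probes. The ADP-ribosyltransferases have a median of -0.27 in D minus C and 0.14 in D + P minus D, and 0 of the 61 genes passed the threshold in any of the 4 comparisons.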

How the data were processed

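Heart RNA of 12 mice was labelled with Cy3 and hybridised to single-channel Agilent arrays. Per the file headers, the deposited intensities were extracted with Feature Extraction 12.0.0.7 (the methods of the study name another version), with background and spatial trends removed, on a linear scale and not normalised between arrays. Flags deposited with each spot, read here as other values of 0 or 1, mark positive, well above background, outlier and saturated spots. The series table deposited by the authors holds quantile normalised intensities.

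Here the processed signal was log2 transformed and quantile normalised, control spots were left out, outlier spots were set missing and repeat spots averaged. A probe was tested if its signal was positive and significant on 50% or more of each group's arrays, and the 2.03% of tested values that were not were kept. Accessions gave RefSeq names for 20774 tested probes. limma 3.58.1 in R 4.3.3 was fitted with 1 mean per group on 12 arrays, with 8 residual and 2.62 prior degrees of freedom and a prior SD of 0.289, and two-sided Benjamini-Hochberg adjusted p over 30859 probes. The fit was tested on simulated data. Figures were drawn with Python 3.11.15, matplotlib 3.10.9, pandas 2.3.3 and numpy 2.4.6.

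Samples were grouped by their labels. The labels name mice as samples, and 1 heart is 1 replicate. The 10 genes, the lists, the markers and the naming rule were chosen with earlier results of these data known. Named are all 10 genes with every probe; of the lists, the 3 largest rises and falls per comparison among probes well above background on at least 1 array of every group; and the 10 highest, 5 lowest and 5 highest within-group r with *Nmrk2*. The lead probe of a gene is the tested one with the highest mean. Alternatives were the 75th percentile scaling, normexp (offset 50), the series table, missing values for signals not positive, both filters, eBayes with trend, array weights, fits of single pairs of groups, the t-test of the methods, blocks, and each array left out.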

Additional observations from a re-analysis of the deposited data

Results flagged for a closer look

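The difference in *Nmrk2* by pargyline had opposite signs without and with diabetes. Every C + P array lay above every C array (mean difference 1.39), and every D + P array lay below every D array (mean difference -0.33), so the second less the first was -1.73. This difference was not tested, because *Nmrk2* had been chosen on these values. Pargyline and slide cannot be told apart in either of them, and the D and D + P arrays were parted by 0.093. The criterion was opposite differences without overlap of arrays, and *Nmrk2* had been chosen on the values it uses. That no other of the 18 tested probes of the 10 genes or named genes of the lists met it is therefore a description. Of all tested probes, 15.4% did not overlap in C + P versus C and 17% in D + P versus D. The share that did so with opposite signs was not determined. None of the other genes passed the threshold in the interaction. Single outlying arrays were not tested in these groups of 3.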

How the results depend on the processing

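The 0 calls among the 17 probes and among the 61 genes were given by every alternative (151 and 157 counts), including each array left out. Few probes were called at all (0 to 348 of those tested, at most 1.13%), so that a count of 0 says little about these genes. The *Nmrk2* differences kept their direction under all alternatives. With normexp they were 1.36 in D versus C, 0.77 averaged over pargyline, 0.87 in C + P versus C and -1.17 for the interaction. With values that were not positive and significant set missing, D versus C was 1.57 and the interaction -1.47, with array weights the interaction was -1.43, and without the 5 arrays of doubtful repeat spots, an alternative chosen after seeing the data, D + P versus D was -0.12 and the interaction -1.35. That alternative leaves 1 D + P heart, assumed to vary like the other groups, and the same holds for its values below. The cause was not tested. Leaving out each array gave 1.68 to 1.94 by diabetes without pargyline, 0.01 to 0.25 by diabetes with pargyline, 0.90 to 1.05 averaged over pargyline, 1.26 to 1.4996 in C + P versus C, -0.43 to -0.17 in D + P versus D and -1.83 to -1.56 for the interaction. The list of genes most like *Nmrk2* shared 2 genes with that under normexp, 5 with missing values, 1 without the 5 arrays, and 5 to 9 with 1 array left out.

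Of 2555 differences of the 17 probes under alternatives, 174 changed sign, 168 of them where the difference as reported was within 1 SE of 0. The other 6 were Nnt probe 3 in D versus C (-0.0112 with missing values and -0.0082 without the 5 arrays), *Cd38* averaged over pargyline (-0.0117 with missing values) and in C + P versus C (-0.0229 with normexp), and without the 5 arrays *Nampt* (-0.0654) and Nmnat1 probe 1 (-0.30) in D + P versus D. None of these was called.

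Replicate numbers are shared between groups, and the deviations of arrays of the same number from their group means had r of -0.20 to 0.20, not above 0.1 for every pair, so the numbers were not taken to pair the mice. Every C array was most like the C + P array of its own number, a hint from the data and not the design, and replicate 1 of every group was among the 5 arrays of doubtful repeat spots. With the replicate block the *Nmrk2* differences stayed at 1.85 and 0.12 by diabetes without and with pargyline, 0.98 on average, 1.39 and -0.33 by pargyline without and with diabetes, and -1.73 for the interaction, and 0 probes of the other 9 genes and 0 of the 61 genes were called. The *Nmrk2* values could not move, because each replicate number occurs on 1 array of each group. Over all 30859 probes the block gave 0, 8, 4, 6, 0 and 0 calls in these 6 comparisons, where 2, 14, 33, 10, 0 and 2 were called without it. The slide as a block could be fitted only for diabetes averaged over pargyline. Signal over background limits the dimmer probes: for Nmnat3 probe 1, well above background on 3 arrays, the 95% interval in D versus C ran from -1.78 to 1.31.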
